A study of Mus musculus with 3 samples.

Results

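The colony stimulating factors and their receptors were described in resting mouse macrophages. The set was chosen by gene symbol and holds 10 genes of the 55536 annotated genes measured. Its 6 receptor genes are Csf1r, Csf2ra, Csf2rb, Csf2rb2, Csf3r and Flt3, and its 4 ligand genes are Csf1, Il34, Csf2 and Csf3. Ribosome-depleted total RNA was sequenced from the cytosolic fraction of primary C57BL/6J bone marrow-derived macrophages. The 3 libraries form 1 group, sampled at 0 minutes of a time course of 100 ng/ml lipid A, the TLR4-activating portion of lipopolysaccharide. All 3 carry the same donor label and a biosample label each, sex and age are labelled as not collected, and no genotype beyond the strain is given. The libraries are labelled as biological replicates 1, 2 and 3, each with technical replicate number 1. Whether that label stands for separate animals or separate cultures is not stated. Each SD therefore covers the spread between these libraries, and how much of it is technical is not known.

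CSF1R is the receptor tyrosine kinase of the macrophage lineage. It binds CSF1 and IL-34, and macrophages depend on it for survival and proliferation; bone marrow progenitors are commonly grown into macrophages with CSF1. GM-CSF, the product of Csf2, signals through a specific alpha chain (Csf2ra) and the common beta chain (Csf2rb), which pass the signal to JAK2 and STAT5. G-CSF, the product of Csf3, signals through a homodimer of CSF3R, best known in neutrophils. FLT3 is a class III receptor tyrosine kinase like CSF1R and is used by early progenitors and dendritic cells. The growth factor used to culture these cells was not given in the sources used here.

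Expected counts over genes summed to between 26318761 and 56290298 per library, with replicate 1 the shallowest. TPM is a transcript abundance per length, scaled to 1 fixed total in every library, and protein-coding genes took only 21.7% to 26.2% of it, the highest share being that of replicate 1. All 8 macrophage markers, such as Lyz2, Cd68 and Adgre1, reached a TPM of at least 1 in every library. So did 17.0% of all genes and 41.0% of protein-coding genes. The summed level of the 8 macrophage markers ran between 4922 and 7055 TPM. The summed levels were 17.4 to 18.2 TPM for 8 neutrophil markers (2 detected, S100a8 and S100a9, with Ly6g at 0 counts), 1.91 to 2.46 TPM for 7 dendritic cell markers, 4.34 to 17.9 TPM for 6 stem and progenitor markers, at most 0.260 TPM for 7 fibroblast markers and at most 0.0700 TPM for 5 T and B cell markers. In bulk RNA, fewer cells of a type and less RNA per cell cannot be told apart.

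Of the 10 genes, 6 had a TPM of at least 1 in all 3 libraries, against 17.0% of all 55536 genes and 41.0% of the 22028 protein-coding genes. Of the 6 receptor genes 5 were detected, and of the 4 ligand genes 1. A difference between receptors and ligands was not tested, since so few chosen genes cannot decide it. With 4 ligand genes, 1 detected gene cannot be told from the 41.0% share of protein-coding genes. The median of the mean levels over the 10 genes was 11.8 TPM, against 0 TPM over all genes and 0.140 TPM over protein-coding genes. A threshold of 0.5 TPM, which 18.8% of all genes and 44.6% of protein-coding genes passed, kept the count at 6, and so did 5 TPM, which 9.83% and 23.9% passed.

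**Figure D1:**
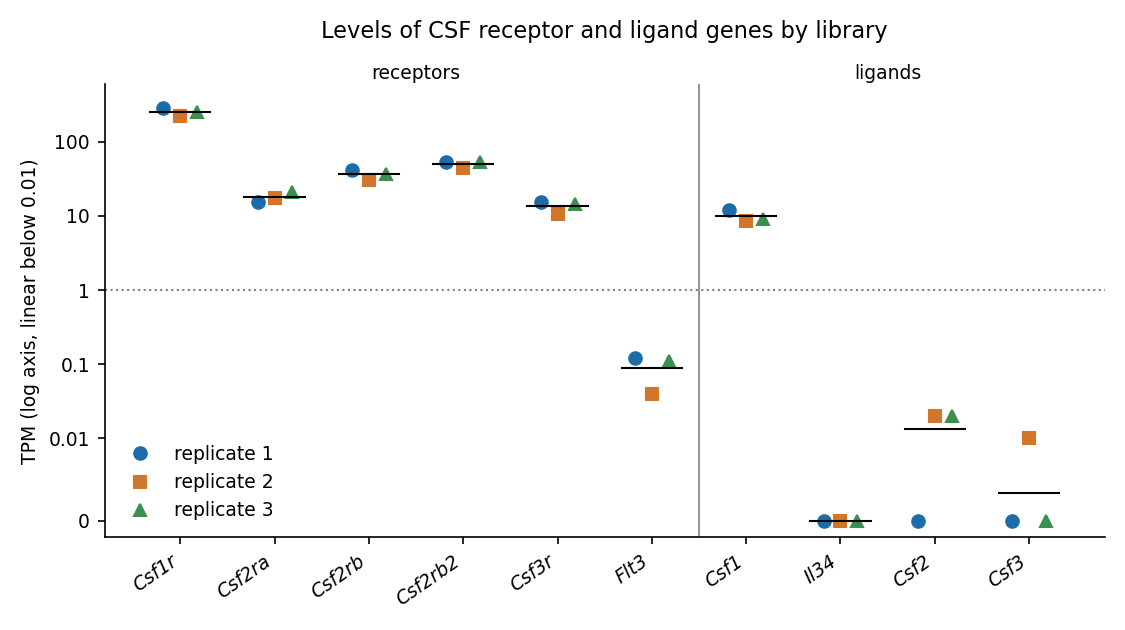
TPM of each of the 10 genes (log axis, linear below 0.01) in the 3 libraries, with receptors on the left, ligands on the right, a bar at each mean and a dotted line at the detection threshold of 1 TPM. Csf1r stands above all others at 222 to 287 TPM, the other detected genes lie between 8.60 and 53.3 TPM, and Flt3, Il34, Csf2 and Csf3 lie below 0.13 TPM.

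Csf1r (ENSMUSG00000024621.16, mm10 chr18:61100598-61132149, plus strand) had the highest level of the set. It had 287, 222 and 253 TPM in replicates 1, 2 and 3, on expected counts of 55710, 74540 and 110988. Replicate 1 was the highest and replicate 2 the lowest, 1.29 times apart. The mean was 254 ± 32.6 TPM (SD, n = 3), rank 109 among the 22028 protein-coding genes and above 98.8% of those detected. When TPM was rescaled over protein-coding genes alone, Csf1r had 1095, 1012 and 1164 in replicates 1, 2 and 3, and the highest library was then replicate 3. The order of the libraries for this gene thus follows the scale chosen, and the rescaled mean was 1090.2 ± 76.2 (SD, n = 3). In the kallisto-format transcript tables the summed level was 165 ± 14.0 TPM, or 1600.0 ± 75.0 when rescaled over protein-coding genes, so the size of the level, though not its place above the other members, depended on the table and scale.

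Csf1 (ENSMUSG00000014599.10, chr3:107741048-107760469, minus strand) encodes CSF1, or M-CSF, and was the ligand gene with detectable RNA. It had 11.9, 8.60 and 9.13 TPM in replicates 1, 2 and 3, on 1802, 2446 and 3299 expected counts. Replicate 1 was again the highest, and the mean of 9.89 ± 1.79 TPM (SD, n = 3) stood above 60.5% of detected protein-coding genes. Within each library the receptor gene was far above its ligand gene: the ratio of Csf1r to Csf1 TPM was 24.1, 25.8 and 27.7, a mean log2 ratio of 4.69 ± 0.10 (SD, n = 3). The ratio does not depend on the TPM total and was close in the 3 libraries.

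Il34 (ENSMUSG00000031750.15, chr8:110741829-110805924, minus strand), the gene of the second CSF1R ligand, had 0 counts in every library. With CPM as counts scaled by library size, a count of 0 allows a level of up to 0.114, 0.0716 and 0.0533 CPM in replicates 1, 2 and 3 (3 counts each), so lower levels were not detectable at this depth. Of the other described IL-34 receptors, the syndecan gene Sdc1 averaged 0.513 ± 0.142 TPM and the receptor phosphatase gene Ptprz1 had 0 counts in all 3 libraries.

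Csf2 (ENSMUSG00000018916.5, chr11:54247271-54249667, minus strand), which encodes GM-CSF, had 0, 1 and 1 counts in replicates 1, 2 and 3. Csf3 (ENSMUSG00000038067.2, chr11:98701263-98703629, plus strand), which encodes G-CSF, had 0, 1 and 0. Every one of these counts lies at or under the floor of 3 counts. In replicate 3, the deepest library, the exact 95% binomial interval of the single Csf2 count ran from 0.000450 to 0.0990 CPM. The interval of the 0 counts of Csf3 there reached 0.0655 CPM, as for Il34. Intervals and floors cover counting error only. The antisense genes annotated across Il34 (Gm15894 and Gm15895), Csf2 (Gm12223) and Flt3 (Gm26597) had 0 counts in all libraries.

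Both receptor chains for GM-CSF, Csf2ra and Csf2rb, were detected, as was the related beta chain gene Csf2rb2, and each beta chain gene stood above Csf2ra in all 3 libraries. Csf2rb2 (ENSMUSG00000071714.7, chr15:78282507-78305721, minus strand), the mouse gene of the IL-3-specific beta chain, had 53.1, 44.4 and 53.3 TPM in replicates 1, 2 and 3, on 11151, 16745 and 25952 counts. Csf2rb (ENSMUSG00000071713.6, chr15:78325752-78353847, plus strand), the common beta chain shared by the receptors for GM-CSF, IL-3 and IL-5, had 41.8, 31.02 and 37.2 TPM, on 8771, 11842 and 18166 counts. For both genes replicate 2 was the lowest. The means were 50.2 ± 5.10 and 36.7 ± 5.40 TPM (SD, n = 3 each), above 92.6% and 89.4% of detected protein-coding genes, and the ranges of the genes over the libraries did not overlap.

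Csf2ra (ENSMUSG00000059326.7, chr19:61223957-61228429, minus strand), the low-affinity GM-CSF-binding alpha chain, had 15.5, 17.4 and 20.8 TPM in replicates 1, 2 and 3, on 905, 1920 and 2881 counts. Its lowest library was replicate 1, unlike every other detected member. The mean was 17.9 ± 2.67 TPM (SD, n = 3). The common beta chain gene Csf2rb was 2.69, 1.78 and 1.79 times Csf2ra in replicates 1, 2 and 3, so the ratio was highest in replicate 1.

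Csf3r (ENSMUSG00000028859.14, chr4:126024550-126044440, plus strand), the G-CSF receptor, had 15.7, 10.8 and 14.6 TPM in replicates 1, 2 and 3, on 1980, 2435 and 4117 counts. Its mean of 13.7 ± 2.57 TPM (SD, n = 3) lay above 70.3% of detected protein-coding genes. Csf1r was 18.3, 20.6 and 17.3 times Csf3r in the same libraries. Of 8 neutrophil markers, 2 were detected in every library, against 17.0% of all genes and 41.0% of protein-coding genes. The surface marker Ly6g had 0 counts and Cxcr2 averaged 0.0300 TPM, while S100a9, the highest of the list, had 10.9, 11.0 and 10.4 TPM in replicates 1, 2 and 3, slightly above Csf3r in replicate 2 and below it in the others. Their part in the Csf3r level was not tested.

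Flt3 (ENSMUSG00000042817.15, chr5:147330741-147400489, minus strand) was counted in every library but stayed below the threshold. Its 19, 11 and 41 counts were 0.722, 0.263 and 0.728 CPM in replicates 1, 2 and 3. The exact 95% binomial intervals were 0.435 to 1.13, 0.131 to 0.470 and 0.523 to 0.988 CPM, so replicate 2 lay below replicate 3 by more than counting error and its interval met that of replicate 1. In TPM the mean was 0.0900 ± 0.0436 (SD, n = 3). FLT3 is used by dendritic cells and progenitors, and of their markers 1 of 7 and 1 of 6 were detected in every library. The background was 17.0% of all genes and 41.0% of protein-coding genes, and lists this short were not tested against it. The dendritic cell marker detected was Itgax, also carried by macrophages, at 1.35 ± 0.196 TPM, and the other 6 averaged at most 0.357 TPM. The stem and progenitor marker detected was Ly6a, with 17.1, 5.81 and 3.97 TPM in replicates 1, 2 and 3, and the other 5, with Kit the highest, averaged at most 0.510 TPM. On the same scale Flt3 had 0.12, 0.04 and 0.11 TPM in replicates 1, 2 and 3. The part of these cells in the Flt3 counts was not tested.

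By mean TPM the order was Csf1r, Csf2rb2, Csf2rb, Csf2ra, Csf3r, Csf1, Flt3, Csf2, Csf3 and Il34. Csf2ra and Csf3r overlapped over the libraries, with Csf2ra higher in 2 of 3. Csf3r and Csf1 overlapped too, although Csf3r was higher within each of the 3 libraries, and Csf2 and Csf3 overlapped at or under the floor of 3 counts. The other neighbouring genes in the order down to Csf2 did not overlap.

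The beta chain genes are close paralogs, so the ratio between them rests on how reads common to them were assigned. The coding sequences of their leading transcripts, Csf2rb-201 (2688 bases) and Csf2rb2-201 (2634 bases), were aligned: 2503 of 2628 aligned bases were identical (95.2%), and the longest identical run was 242 bases. Of the 31-base words of the whole Csf2rb-201 transcript, 28.9% also occur in Csf2rb2-201, and of its 100-base words 7.16%. The least alike window of 120 aligned coding bases differs at 22 of them and is shown because reads from it can be told apart. Capitals mark the bases that differ between the genes; the sequences are from GENCODE M21 transcripts on mm10, 5′ to 3′, and each window crosses an exon junction, within chr15:78338898-78340471 (plus strand) and chr15:78292838-78294433 (minus strand).
Csf2rb-201: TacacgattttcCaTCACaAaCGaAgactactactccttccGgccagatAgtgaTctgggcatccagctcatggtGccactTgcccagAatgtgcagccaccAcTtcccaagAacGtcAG
Csf2rb2-201: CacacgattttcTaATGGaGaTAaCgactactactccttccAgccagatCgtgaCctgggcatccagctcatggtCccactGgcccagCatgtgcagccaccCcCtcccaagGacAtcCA
A window of the same length nearer the 3′ end of the coding sequence is identical in both genes and is shown as the contrast, since a read inside it cannot be assigned from its bases. It lies in an exon at chr15:78348577-78348696 (plus strand) in Csf2rb and at chr15:78284752-78284871 (minus strand) in Csf2rb2. The annotated microRNA genes Mir7676-2 and Mir7676-1 lie inside these windows and had 0 counts. Both are shorter than the windows, and the libraries are labelled with a size range of 250 to 400. Their 0 counts therefore say nothing about their expression.
Csf2rb-201 and Csf2rb2-201: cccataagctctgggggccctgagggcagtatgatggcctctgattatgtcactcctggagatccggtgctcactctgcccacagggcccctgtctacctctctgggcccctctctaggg

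In the RSEM-format gene tables Csf2rb was below Csf2rb2 in every library, with ratios of 0.787, 0.699 and 0.698 in replicates 1, 2 and 3 (mean log2 ratio -0.46 ± 0.10, SD, n = 3). The kallisto-format tables gave 1.04, 1.05 and 0.946, a mean log2 ratio of 0.01 ± 0.08, so the direction was not kept. Kallisto-format TPM placed 16.4% ± 11.4 of Csf2rb on Csf2rb-202, a 397-base transcript annotated as incomplete, and 7.37% ± 3.77 on Csf2rb-203, a 328-base noncoding transcript, while the RSEM-format tables list both at 0. Over complete coding transcripts alone, a sum chosen after the values were seen, the ratios were 0.775, 0.697 and 0.688 in the kallisto format and 0.772, 0.697 and 0.680 in the RSEM format. This sum leaves out the short transcripts and also longer noncoding ones, such as the 2470-base retained-intron transcript Csf2rb-205 (2.57% ± 2.37 of Csf2rb in the kallisto format). On it, both formats placed Csf2rb below Csf2rb2 in all 3 libraries. For Csf2rb2 the leading transcript Csf2rb2-201 took 96.6% ± 0.907 in the RSEM format and 92.8% ± 1.78 in the kallisto format.

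**Figure D2:**
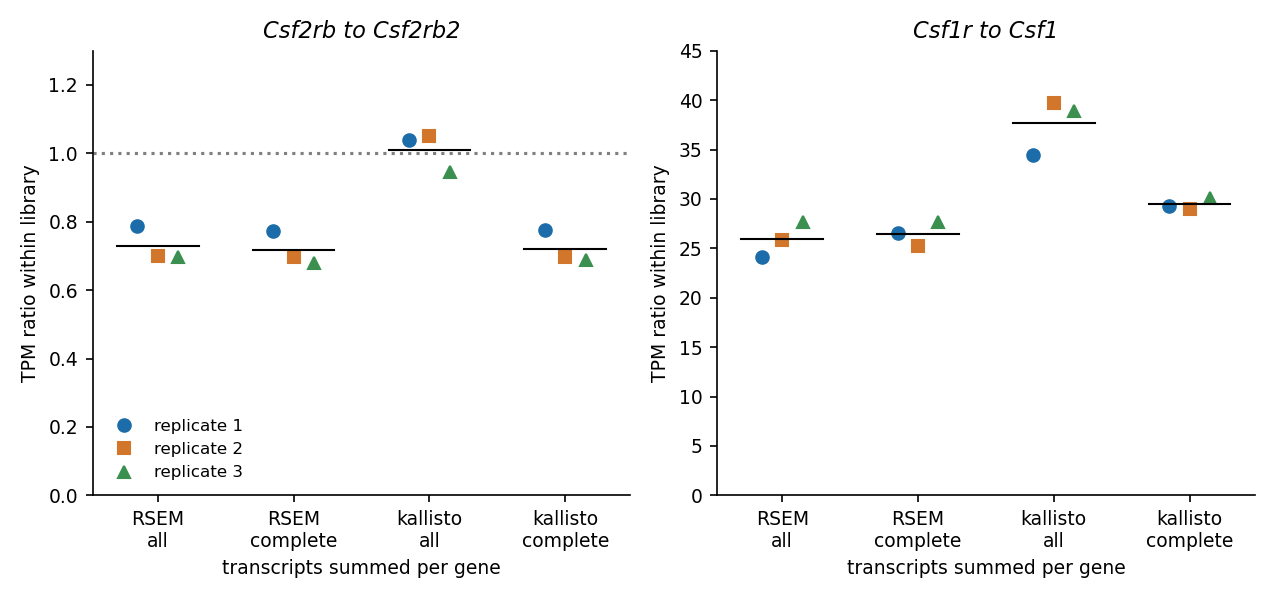
Ratio of TPM within each library for Csf2rb to Csf2rb2 (left, dotted line at 1) and Csf1r to Csf1 (right), in both table formats, summed over all transcripts of a gene or over complete coding transcripts, with a bar at each mean. The Csf2rb ratio lies at 0.946 to 1.05 in the kallisto format over all transcripts and at 0.680 to 0.787 otherwise, while the Csf1r ratio lies between 24.1 and 39.7 throughout.

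For Csf1r the table formats differed most in the isoforms. Csf1r-201 (3870 bases, 22 exons) and Csf1r-202 (4701 bases, 21 exons) carry a coding sequence of the same length, 977 codons without the stop, and Csf1r-202 runs 1015 bases further at the 3′ end (chr18:61131135-61132149). In the RSEM format Csf1r-202 took 55.9%, 78.0% and 66.9% of the gene in replicates 1, 2 and 3, and Csf1r-201 took 43.9%, 12.4% and 26.7%. In the kallisto format Csf1r-202 took 5.53% ± 0.303 and Csf1r-201 62.5% ± 5.38 (SD, n = 3 each). The leading isoform was therefore a different one in each format, and within the RSEM format the shares differed widely between libraries.

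Of the 1015 bases particular to Csf1r-202, 873 overlap Hmgxb3, an HMG-box gene on the opposite strand, which averaged 3.51 ± 0.215 TPM. How the counting used strand was not given in the sources used here, so reads from the overlap cannot be told apart by gene. The kallisto format also gave 31.7% ± 5.78 of Csf1r TPM to Csf1r-205, an incomplete transcript of 416 bases. In replicate 1 that share rested on 1018 estimated counts, 1.74% of the gene's counts, and the effective length, the number of positions a fragment can start from, was 179.6 bases. Total Csf1r counts were close in both formats: 58582, 79476 and 123094 in the kallisto format and 55710, 74540 and 110988 in the RSEM format, for replicates 1, 2 and 3. The Csf1r to Csf1 ratio in the kallisto format was 34.4, 39.7 and 38.9, and over complete coding transcripts, again chosen after the values were seen, 29.3, 29.0 and 30.1.

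The Csf1 isoforms separate secreted from membrane-anchored forms of the ligand. A long exon 6 (1016 bases, chr3:107748154-107749169) encodes the region through which CSF1 is cleaved and secreted as a glycoprotein or proteoglycan. In Csf1-202 the exon is 131 bases long, which removes 885 bases in frame and leaves 257 codons in place of 552, the form known to stay at the cell surface. The junction of exons 5 and 6 is shown because it tells the forms apart. The sequences are GENCODE M21 coding bases on mm10, minus strand of chr3, 5′ to 3′, with exon 6 in capitals; Csf1-203 has the same bases here as Csf1-201.
Csf1-201: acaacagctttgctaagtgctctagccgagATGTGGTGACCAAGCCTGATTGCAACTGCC
Csf1-202: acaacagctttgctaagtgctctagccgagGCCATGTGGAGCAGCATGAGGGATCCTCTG

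Transcripts with the long exon made up most Csf1 RNA. Csf1-201 and Csf1-203 together took 71.5%, 73.4% and 73.4% of the gene's TPM in replicates 1, 2 and 3 in the RSEM format, and 80.1% ± 1.51 in the kallisto format. The short form Csf1-202 took 18.7%, 19.2% and 19.1% in the RSEM format, a spread of 0.261 percentage points. In the kallisto format it took 5.21% ± 2.02, so the direction was the same in both while the size was not. Most of the rest was Csf1-205, an incomplete transcript, with 7.80% ± 1.82 in the RSEM format.

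Csf3r-201 (15 exons) and Csf3r-202 (17 exons) carry coding sequences of equal length, 837 codons without the stop. In the RSEM format Csf3r-201 took 63.1%, 69.8% and 67.8% in replicates 1, 2 and 3, and Csf3r-202 took 22.7%, 16.0% and 13.6%. In the kallisto format the isoforms were nearly level, at 44.6% ± 4.33 and 42.7% ± 3.13 (SD, n = 3 each). Noncoding processed transcripts made up 15.7% ± 2.56 of Csf3r in the RSEM format.

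**Figure D3:**
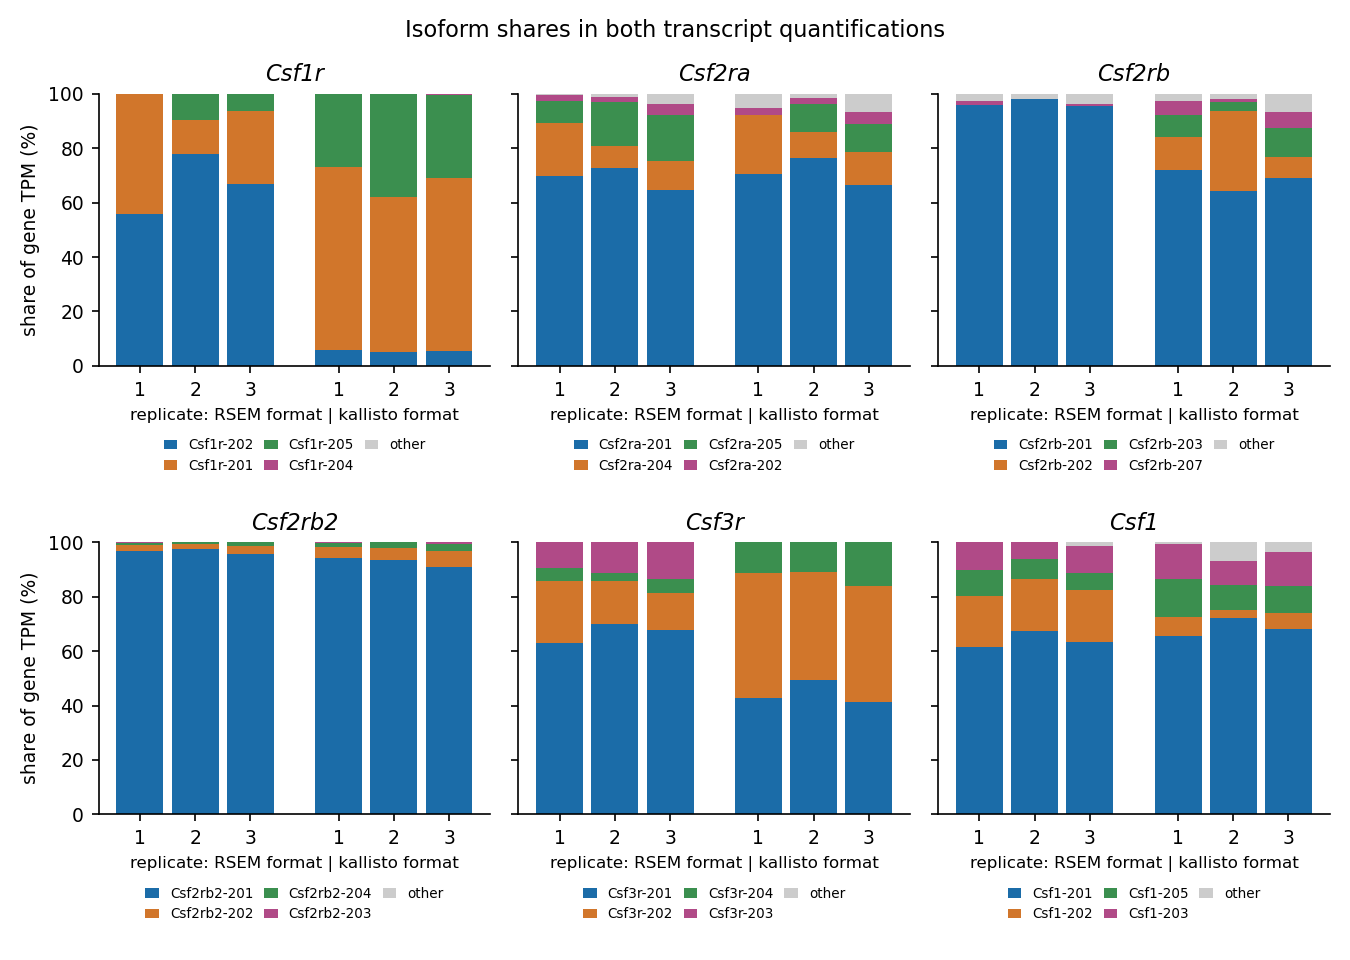
Share of each detected gene's TPM (percent) taken by its isoforms in replicates 1, 2 and 3, with RSEM-format bars on the left of each panel and kallisto-format bars on the right, and isoforms beyond the leading 4 in grey. Csf2rb2 is carried by Csf2rb2-201 at 90.8% or more in every bar, while Csf1r is led by Csf1r-202 in the RSEM format and by Csf1r-201 in the kallisto format.

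In the RSEM format, 30.6% ± 3.51 of Csf2ra TPM lay outside complete coding transcripts, against 0.989% to 15.7% as means of the other detected members. In the kallisto format the share was 26.8% ± 4.16 for Csf2ra, below the 32.0% ± 5.68 of Csf1r and the 30.4% ± 4.04 of Csf2rb (SD, n = 3 each), so the place of Csf2ra among the members depended on the format. In the RSEM format Csf2ra-204, a noncoding transcript of 330 bases, took 19.4%, 8.16% and 10.9% of Csf2ra TPM in replicates 1, 2 and 3. It held only 1.69%, 0.756% and 1.05% of the gene's counts, or 15.3 counts in replicate 1. Complete coding transcripts held 91.7%, 91.0% and 85.2% of the counts. The coding transcript Csf2ra-201 took 69.8%, 72.7% and 64.5% of Csf2ra TPM in replicates 1, 2 and 3. Transcripts with a retained intron took 10.8%, 19.1% and 23.3% of its TPM and 6.64%, 8.28% and 13.8% of its counts, with replicate 3 the highest and replicate 1 the lowest. Over all protein-coding genes the retained-intron share of TPM was 2.88%, 2.81% and 3.55%, also highest in replicate 3. Levels of the nuclear RNA Malat1 were 224, 207 and 1008 TPM in the same libraries, and those of Neat1 18.7, 16.7 and 92.5 TPM; the part of nuclear RNA in the Csf2ra values was not tested. Over complete coding transcripts alone, Csf2ra had 10.8, 12.7 and 13.7 TPM in replicates 1, 2 and 3 (mean 12.4 ± 1.44, SD, n = 3), and replicate 1 stayed the lowest.

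The spread between libraries was taken as the SD of log2 CPM after TMM scaling, which adjusts for composition. Its median was 0.119 over the 12413 genes past the filter on low counts. Of the 6 detected members, 3 lay below that median: Csf1 at 0.09, Csf1r at 0.11 and Csf2rb at 0.12, with 49.3% of genes below the last. Csf2rb2 at 0.13 was just above it and Csf3r reached 0.20.

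Over all 3 libraries Csf2ra had the widest spread of the detected members, 0.34, which exceeded that of 87% of genes. Its log2 CPM values were 5.05, 5.53 and 5.72 in replicates 1, 2 and 3, with replicate 1 apart. Without replicate 1 its SD was 0.13, below the 0.25 of Csf3r, the 0.17 of Csf2rb2 and the 0.16 of Csf2rb, so its place as the widest rests on that library. Flt3, which passed the count filter but not the TPM threshold, had an SD of 0.75, above 97.2% of genes, on the low counts given earlier. Its log2 CPM values were -0.42, -1.67 and -0.32 in replicates 1, 2 and 3, and without replicate 2 its SD was 0.06, below the median of 0.115 over all genes in that setting. Leaving out replicate 1 put 5 detected members above the median, leaving out replicate 2 put 2 there and leaving out replicate 3 put 5, so that split rests on single libraries.

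**Figure D4:**
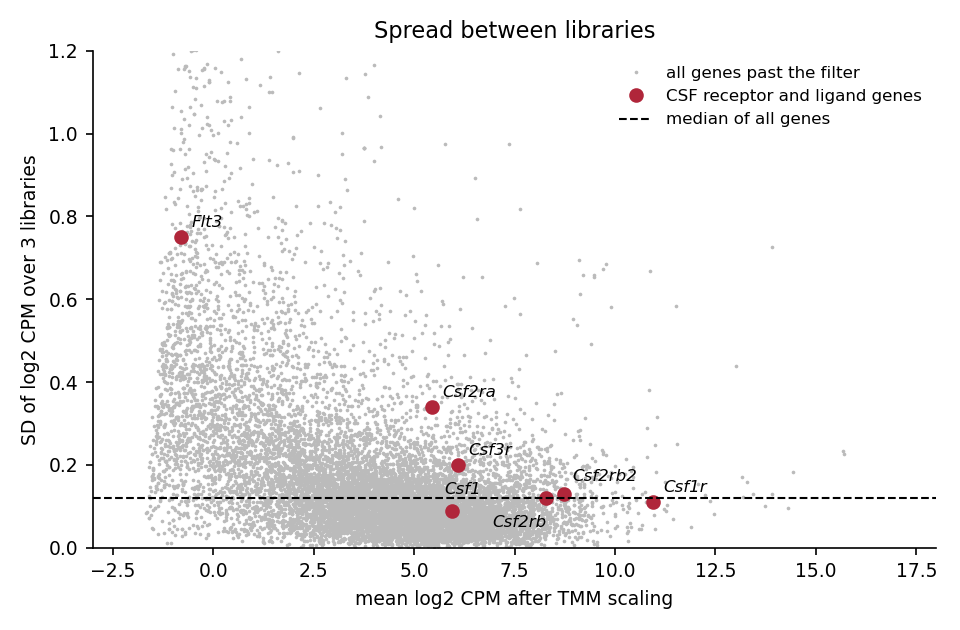
SD of log2 CPM over the 3 libraries against the mean log2 CPM after TMM scaling, for all 12413 genes past the filter (grey; 134 lie above the axis) and 7 of the 10 genes (red), with a dashed line at the median SD. Csf2ra at 0.34 and Flt3 at 0.75 stand highest, and Csf1, Csf1r, Csf2rb and Csf2rb2 lie between 0.09 and 0.13.

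Of 56 genes in 7 lists around these receptors, 40 reached 1 TPM in every library, against 17.0% of all genes and 41.0% of protein-coding genes, which is the background for each list that follows. The lists ran from 14 of 16 genes detected down to 1 of 4 and 0 of 2. Downstream of CSF1R, 14 of 16 proximal signalling genes did, with a median of 18.1 TPM. The highest were Tyrobp, the DAP12 adaptor, at 773 ± 177 TPM, Grb2, the adaptor that links receptor tyrosine kinases to RAS, at 97.4 ± 16.6 TPM, and Inpp5d, the inositol phosphatase SHIP1, at 45.8 ± 5.19 TPM (SD, n = 3 each). The SRC family kinase genes Src and Fgr stayed below 1 TPM in every library, at means of 0.683 and 0.200.

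Of 5 genes tied to the shedding of CSF1R and CSF1, 4 were detected. The metalloproteinase gene Adam17 averaged 25.2 ± 5.22 TPM, the proprotein convertase gene Furin 22.3 ± 1.90 TPM and the metalloproteinase gene Adam10 21.3 ± 2.60 TPM, each above the level of Csf1 in all 3 libraries. Of the iRhom genes in the list, Rhbdf2 averaged 7.35 ± 1.14 TPM and was detected in every library, while Rhbdf1 averaged 0.527 TPM.

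Of 10 transcription regulators of Csf1r, 8 were detected, with a median of 11.0 TPM. They were led by Spi1, which encodes the lineage factor PU.1, at 61.5 ± 9.65 TPM, then Irf8 at 51.1 ± 7.96 TPM and Cebpa at 41.4 ± 3.15 TPM (SD, n = 3 each). The progenitor-associated factors Gfi1 and Myb averaged 0.0400 and 0.0333 TPM, on at most 18 counts in a library.

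Downstream of the GM-CSF and G-CSF receptors, 9 of 12 genes were detected, with a median of 8.81 TPM. The kinase gene Jak1 averaged 34.8 ± 2.62 TPM and Stat3 15.2 ± 2.76 TPM (SD, n = 3 each). The genes of JAK2 and STAT5, named above for GM-CSF, were detected at lower levels. Jak2 averaged 6.44 ± 0.977 TPM, Stat5b 7.79 ± 0.884 TPM and Stat5a 4.27 ± 0.756 TPM (SD, n = 3 each). The feedback inhibitor genes Socs1 and Cish stayed below 1 TPM in every library, with a mean of 0.397 TPM for Socs1 and 0.16 to 0.36 TPM for Cish.

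Of the chains and ligands that share the common beta family, Il3ra, the IL-3 receptor alpha chain, had 11.7, 13.8 and 13.1 TPM in replicates 1, 2 and 3. Like Csf2ra, it was lowest in replicate 1. The genes of the ligands IL-3 and IL-5 and of the IL-5 receptor alpha chain, Il3, Il5 and Il5ra, had 0 counts in every library, with the floors given for Il34.

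Among the other class III receptor tyrosine kinases and ligands, 4 of 7 genes were detected, all of them ligands. Pdgfb averaged 4.76 ± 0.330 TPM, Pdgfa 2.75 ± 0.627 TPM and Kitl, the ligand of KIT, 2.32 ± 0.322 TPM. The receptors Kit, Pdgfrb and Pdgfra were below 1 TPM in every library, with Kit at 0.510 ± 0.193 TPM. Csf1r was thus the receptor gene of this class detected here, and Pdgfrb, its upstream neighbour on the same strand, held 1, 2 and 9 counts in replicates 1, 2 and 3.

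**Figure D5:**
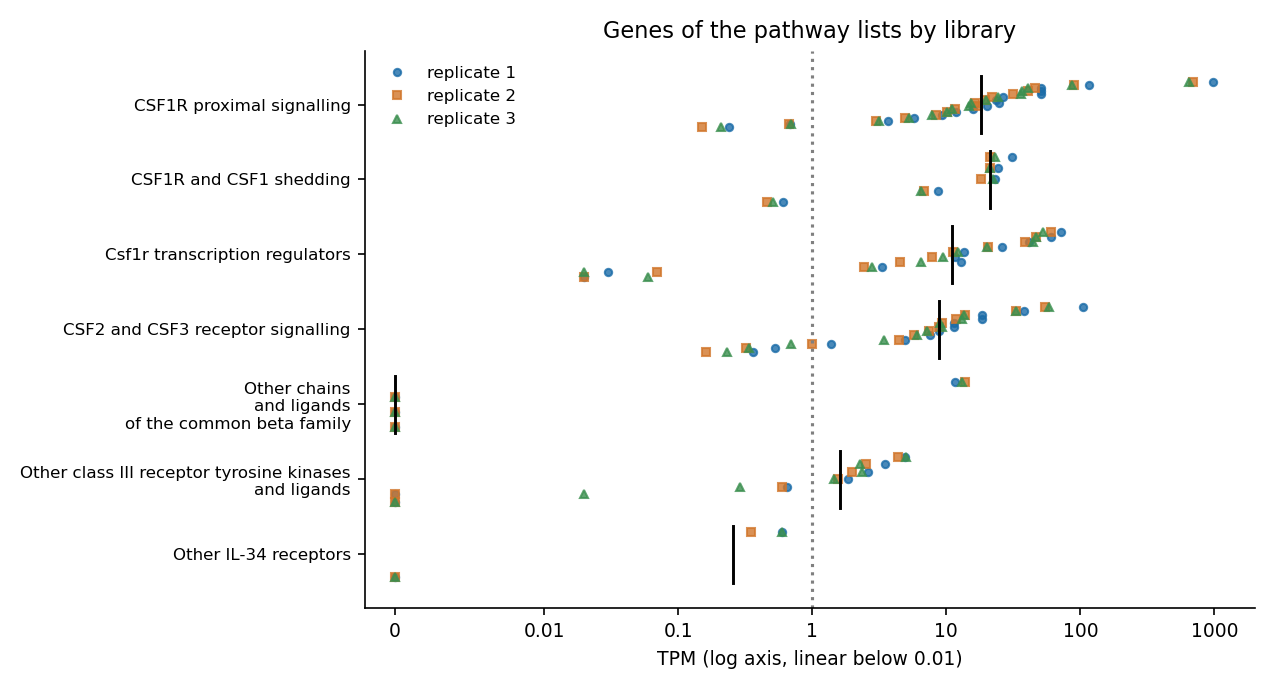
TPM (log axis, linear below 0.01) in each library for the 56 genes of 7 lists around the receptors, 1 height per gene within a list, with a bar at each list's median and a dotted line at 1 TPM. The lists on CSF1R signalling, shedding, Csf1r regulators and CSF2 and CSF3 signalling have medians of 18.1, 21.3, 11.0 and 8.81 TPM, while the common beta family list has a median of 0.

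For each detected member, the 3 other protein-coding genes with the most similar levels were found by the largest difference in log2(TPM + 1) over the 3 libraries. They were Cst3, Lipa and Cfl1 for Csf1r, within 0.12, 0.14 and 0.18, and Myh9, Nrp2 and Myof for Csf2rb2, within 0.09. For Csf2rb they were Tmem65, Tram1 and Cd300lb, and for Csf2ra Appl2, Zc3h11a and Apobr. Csf3r was closest to Nipa2, Tmem168 and Fam126a, and Csf1 to Kbtbd2, Sgk3 and Kctd20. The likeness is in level over 3 libraries only.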

How the data were processed

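A gene table and a pair of transcript tables were used per library. The authors deposited expected counts (read estimates that can be fractional), TPM with its posterior mean, and the isoform percent. The gene table and 1 transcript table follow the RSEM layout and the other transcript table the kallisto layout, per the file headers. The values refer to mm10 and GENCODE M21, per the labels and the deposited notes, and the versions of these tools are not given in the sources used here.

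The GENCODE M21 annotation supplied names, classes and coordinates and matched all 55536 gene identifiers; tRNA and spike-in entries stayed out of gene totals. Members were matched by symbol, and all 10 matched. A gene was called detected at 1 TPM or more in every library. Values are a mean ± SD over 3 libraries, and exact 95% binomial intervals were computed for low counts. There is 1 group, so no test between conditions was made, and an exact two-sided sign-flip test over 3 libraries cannot go below 0.25. Expected counts were rounded to whole numbers, filtered with filterByExpr and scaled by TMM in edgeR 4.0.16 (R 4.3.3), with DESeq2 1.42.0 size factors as an alternative; this step was tested on simulated data. Coding sequences were aligned with Biopython 1.88. Named genes are the 10 members, the 3 highest of each list and list genes below 1 TPM in every library. The 3 genes closest in level to each detected member are named too. Rhbdf2, Jak2, Stat5a and Stat5b are given beside related genes or proteins named in the text. Marker genes and genes overlapping a member are given for context. The values of 1 list gene are not reported here. The members and lists were chosen with earlier results of these data known. Alternatives were posterior mean and kallisto-format TPM, rescaling over protein-coding genes, other thresholds, a pseudocount and leaving out each library.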

Additional observations from a re-analysis of the deposited data

How the results depend on the processing

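No paired analysis was possible because there is 1 group. The 6 detected members stayed 6 under every alternative run. Of the 56 list genes, 31 to 46 were detected, against 40 as reported. The 31 were at 5 TPM, which 9.83% of all genes and 23.9% of protein-coding genes passed. The 46 followed rescaling over protein-coding genes, which raised TPM in every library, and the share of all genes passing there is not given. Csf1r averaged 165 TPM in the kallisto format, 112 TPM there over complete coding transcripts (chosen after seeing the data) and 1090.2 when rescaled over protein-coding genes, against 254 TPM. Its log2 ratio to Csf1, 4.69 as reported, was 5.23 in the kallisto format, 4.88 there over complete coding transcripts and 4.55 with a pseudocount of 1 TPM. The log2 ratio of Csf2rb to Csf2rb2, -0.46, turned to 0.01 in the kallisto format and was -0.48 over complete coding transcripts in both formats; 4 of 6 members then kept their rank in the kallisto format over all transcripts. Isoform shares in the kallisto format were 5.53% for Csf1r-202, 68.6% for Csf1-201, 68.4% for Csf2rb-201, 92.8% for Csf2rb2-201 and 44.6% for Csf3r-201, and as posterior means 64.5% for Csf2ra-201 and 93.5% for Csf2rb-201. Members with a spread above the median of all genes, 3 as reported, were 6 on log2(TPM + 1). They were also 6 with no filter on low counts, where the median SD of all genes is 0.000, so that any spread lies above it and the count carries no information. Their number without 1 library ran between 2 and 5. Without 1 library, Csf1r ran between 237 and 270.0 TPM, its log2 ratio to Csf1 between 4.64 and 4.74, that of Csf2rb to Csf2rb2 between -0.52 and -0.43, and Csf1r-202 between 61.4% and 72.4%. The causes were not tested beyond what the transcript sums show. Depth limits statements on Il34, Csf2, Csf3 and Flt3.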
